A study of Homo sapiens with 36 samples.

Results

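The genes described here are 40 interferon-stimulated genes, a set chosen by gene symbol as genes of the interferon response and followed across all 12 groups of cultures. A gene was represented by 1 probe set that the platform annotation ties to that symbol alone, the one with the highest mean over the 36 arrays. Probe sets ending in _x_at, which can bind related genes, were taken only where there was no other. By this rule 39 of the 40 genes had a probe set, out of 19775 genes with one in the series, and STAT2 is not analysed here. The cells were HK-2, an established line of immortalized human kidney cells taken from the proximal tubule epithelium, so all cultures share 1 origin. Cultures were exposed to Aa for 24 h or 48 h or to Ota for 24 h or 72 h, names that the labels do not spell out. Either compound was given at 2 doses, low and high, beside vehicle alone. Each of the 12 groups had 3 cultures, which the labels call biological replicates, and each compound and time had vehicle controls of its own. All groups shared a serum-free medium with added hormones and growth factors, with no interferon or virus named in the labels. The concentrations are not given in the labels, so a high dose of Aa and a high dose of Ota are not matched.

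Interferons are secreted proteins that bind receptors on the cell surface, and the receptors' kinases then activate a DNA-binding complex that contains IRF9. The complex switches on genes whose products block the entry, copying or assembly of viruses, sense foreign RNA, display peptides to T cells and feed back on the pathway itself. In kidney tubule cells these genes can also be switched on from within the cell, when RNA or DNA sensors and IRF family factors act without added interferon.

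The start regions of these genes are shown first, because they carry the letters through which the pathway is known to reach them. Promoter windows from 250 bases before to 50 bases after the start were taken from RefSeq (GRCh38.p14) and matched 33 of the 40 genes by symbol. IFIT2, OAS2, OASL, MX2, IFITM2, IRF7 and USP18 had no entry in the table. The core of the interferon-stimulated response element (ISRE), searched as a pair of GAAA repeats with any 2 bases between them, was looked for on both strands. So was TTCNNNGAA, with N for any base, the core of the element through which interferon gamma acts. The ISRE core lay in 21 of the 33 windows (63.6%), in 3.57% of the 35116 promoter windows of the table and in 2.94% of the 15384 whose gene is on the array. TTCNNNGAA lay in 9 of the 33 (27.3%), against 7.66% and 6.95%. Both lay in 5 windows, and the matches of the motifs can overlap. A match is a run of letters and was not tested as a binding site. The 8 windows below belong to genes that the results below turn on: the factors IRF1 and IRF9, the effectors IFIT5, OAS3, IFI6 and IFI35, and the neighbours TAP1 and PSMB9. Each is written 5′ to 3′ on the strand of its gene, with the letters of either motif in capitals.
IRF1, chr5:132490724-132491023 on the minus strand: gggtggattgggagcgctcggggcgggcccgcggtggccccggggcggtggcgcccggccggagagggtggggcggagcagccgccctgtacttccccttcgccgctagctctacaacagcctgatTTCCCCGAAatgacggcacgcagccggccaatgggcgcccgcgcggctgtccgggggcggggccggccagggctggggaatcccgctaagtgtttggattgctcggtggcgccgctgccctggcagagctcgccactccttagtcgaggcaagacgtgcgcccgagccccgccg
IRF9, chr14:24161015-24161314 on the plus strand: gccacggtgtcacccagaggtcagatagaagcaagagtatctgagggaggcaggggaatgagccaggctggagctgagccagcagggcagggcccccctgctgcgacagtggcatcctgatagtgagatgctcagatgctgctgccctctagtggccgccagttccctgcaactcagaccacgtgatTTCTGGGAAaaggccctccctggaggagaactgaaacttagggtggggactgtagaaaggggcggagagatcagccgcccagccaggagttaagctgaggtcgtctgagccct
IFIT5, chr10:89414318-89414617 on the plus strand: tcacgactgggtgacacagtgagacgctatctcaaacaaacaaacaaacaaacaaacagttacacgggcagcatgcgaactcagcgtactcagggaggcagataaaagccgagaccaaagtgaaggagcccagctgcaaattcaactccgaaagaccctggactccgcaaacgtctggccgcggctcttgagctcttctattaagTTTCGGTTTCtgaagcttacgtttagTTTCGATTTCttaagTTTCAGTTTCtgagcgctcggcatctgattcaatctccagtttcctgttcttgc
OAS3, chr12:112938224-112938523 on the plus strand: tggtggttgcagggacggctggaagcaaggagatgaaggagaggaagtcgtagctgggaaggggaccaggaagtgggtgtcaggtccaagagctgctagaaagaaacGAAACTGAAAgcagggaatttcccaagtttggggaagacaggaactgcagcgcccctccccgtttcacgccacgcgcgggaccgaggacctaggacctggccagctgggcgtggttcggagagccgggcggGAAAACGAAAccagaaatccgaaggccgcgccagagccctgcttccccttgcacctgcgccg
IFI6, chr1:27672143-27672442 on the minus strand: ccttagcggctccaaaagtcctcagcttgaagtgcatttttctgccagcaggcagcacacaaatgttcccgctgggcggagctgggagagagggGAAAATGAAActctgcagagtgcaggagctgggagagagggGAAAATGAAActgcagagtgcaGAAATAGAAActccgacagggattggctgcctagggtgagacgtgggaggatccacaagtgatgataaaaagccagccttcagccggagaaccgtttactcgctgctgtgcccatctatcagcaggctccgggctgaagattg
IFI35, chr17:43006534-43006833 on the plus strand: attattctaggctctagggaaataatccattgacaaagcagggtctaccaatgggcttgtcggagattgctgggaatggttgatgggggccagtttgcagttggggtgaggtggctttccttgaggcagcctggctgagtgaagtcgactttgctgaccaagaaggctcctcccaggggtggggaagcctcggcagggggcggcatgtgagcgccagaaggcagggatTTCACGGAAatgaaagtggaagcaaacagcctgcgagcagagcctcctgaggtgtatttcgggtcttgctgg
TAP1, chr6:32853655-32853954 on the minus strand: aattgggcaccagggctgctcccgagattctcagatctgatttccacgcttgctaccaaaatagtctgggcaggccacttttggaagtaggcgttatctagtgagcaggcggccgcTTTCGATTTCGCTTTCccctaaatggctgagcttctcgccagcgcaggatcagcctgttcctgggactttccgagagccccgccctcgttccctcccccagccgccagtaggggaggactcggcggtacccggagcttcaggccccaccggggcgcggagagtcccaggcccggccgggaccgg
PSMB9, chr6:32853942-32854241 on the plus strand: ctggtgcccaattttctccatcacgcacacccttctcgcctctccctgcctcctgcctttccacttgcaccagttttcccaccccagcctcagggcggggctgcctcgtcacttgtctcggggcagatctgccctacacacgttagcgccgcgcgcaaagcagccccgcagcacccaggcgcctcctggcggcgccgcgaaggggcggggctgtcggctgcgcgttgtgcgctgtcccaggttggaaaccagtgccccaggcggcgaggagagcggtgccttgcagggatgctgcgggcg

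The windows of IRF1, IRF9 and IFI35 hold TTCNNNGAA and not the ISRE core, those of IFIT5, OAS3, IFI6 and TAP1 hold the ISRE core, and neither motif was found in the window of PSMB9. Genes with and without the core are counted apart, as a description. At the high dose of Aa and 24 h, 10 of 20 tested genes with the ISRE core rose and 1 fell, and of 9 tested genes without it 5 rose and 1 fell, where 27.4% of all genes tested were higher and 24.0% lower. For Ota at 72 h, 4 of 19 with it rose and 11 fell, and of 9 without it 2 rose and 6 fell, where 26.3% of all genes were higher and 37.0% lower. The counts are small, and no difference between genes with and without the core was tested.

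The values are the authors' log2 expression levels per probe set. A gene was tested for a compound if its level was above 4 on at least 3 of that compound's 18 arrays, and was called at an adjusted p under 0.05 in limma over all genes tested. This kept 34 of the 39 genes among 10972 for Aa and 32 among 11029 for Ota. OAS2, MX2, SAMD9L, IFI27 and XAF1 were at or under 4 on all 36 arrays, where levels have no dependable order. IFI27 came nearest to it, with 3.98 on 1 array of the high dose of Aa at 24 h. MX1 and USP18 passed the filter for Aa and not for Ota. The genes that passed because they are high in a treated group had to differ, so the counts below describe the tested genes and are not evidence for the set. For MX1 and USP18 the high dose arrays of Aa at 24 h were enough to pass the filter, and no Aa control was above 4. With 3 arrays a group, their number limits the precision of every value. Levels in bulk RNA do not tell fewer cells expressing a gene from less RNA per cell.

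Arrays of 1 group correlated with each other at r from 0.950 to 0.994 over the tested genes, and those of Ota at the high dose and 24 h stood apart from the rest. The middle tested gene stood at 7.64 ± 0.16 (SD over 3 arrays) there and at 8.28 ± 0.06 in their controls, and at 72 h it was 7.95 ± 0.05 against 8.28 ± 0.02. The median change over the tested genes was -0.26 (log2) with a high dose of Ota at 24 h, and 0.38 when the arrays were shifted to equal medians. At 72 h these values were -0.12 and 0.20. Among markers of the cells, 4 of 4 keratins were above 4 on at least 3 arrays, and 5 of 10 proximal tubule markers were at or under 4 on all arrays, AQP1, ANPEP, LRP2, CUBN and SLC22A6 among them. Of 9 leukocyte markers, PTPRC, CD3E, CD14, LYZ and CLEC4C were at or under 4 on all arrays, as were 5 of 6 endothelial and 4 of 7 fibroblast and 3 of 7 distal nephron markers.

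A high dose of Aa raised interferon-stimulated genes broadly at 24 h. Of the 34 tested, 18 rose and 2 fell, where 51.3% of all genes tested were called, 27.4% as higher and 24.0% as lower. The median change of the 34 genes was 0.68 (log2), beside 0.03 over all genes. With the replicate number as a block 21 rose and 6 fell, where 6842 of 10972 genes were called, 3613 of them as higher. On the 3 treated arrays, 27, 30 and 21 of the 34 lay above their control mean, with median deviations of 0.64, 0.92 and 0.38, so replicate 3 showed the weakest rise. With the replicate block the low dose at 24 h raised 6 and lowered 6, where 4190 of 10972 genes were called. Without the block the low dose at 24 h raised IFIT3, IRF1, IRF9, PARP9 and TAP1 and lowered BST2, IFI35 and IRF7, 5 and 3 genes (25.1% of all genes called, 11.6% as higher and 13.5% as lower), with a median of -0.03. The 8 calls became 3 without low dose replicate 1, 3 without low dose replicate 3 and 5 without control replicate 3. The high dose exceeded the low dose for 18 genes and lay below it for 0 (27.1% of all genes called, 17.1% as higher and 9.95% as lower), with a median difference of 0.71 beside 0.06 over all genes.

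At 48 h a high dose of Aa raised 13 and lowered 11 of the 34 (66.0% of all genes called, 30.9% as higher and 35.1% as lower), with a median change of 0.10 beside -0.04 over all genes. These shares, 38.2% and 32.4%, lie near those of all genes. Of the 18 genes that rose at 24 h, 12 rose at 48 h as well (66.7% of the 18 and 92.3% of the 13): IFIT2, OAS3, MX1, ISG15, TRIM21, IFI6, IRF1, IRF7, IRF9, PARP9, PARP14 and TAP1. The 48 h call of MX1 vanished with levels at or under 4 set to 4. Another probe set of IFIT2 was not called at 48 h, at 0.03 ± 0.42. How many of all genes rose at both times was not counted, so the overlap has no background beside it. IFIT5 alone went from higher at 24 h to lower at 48 h. The low dose at 48 h raised 7 and lowered 3 (37.9% of all genes called, 18.8% as higher and 19.1% as lower). IFIT3, OAS3, IFI6, IRF1, IRF9, PARP9 and TAP1 rose there, and BST2, DDX60 and IFI35 fell. With the replicate number as a block 10 rose and 8 fell, where 5722 of 10972 genes were called. High exceeded low for 11 genes and lay below it for 4 (46.5% of all genes called, 20.9% as higher and 25.6% as lower). With the replicate block these counts were 11 and 8, where 6345 of 10972 genes were called.

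A high dose of Ota at 24 h raised 7 and lowered 13 of 32 tested genes (64.0% of all genes called, 21.6% as higher and 42.4% as lower), and the median change was -0.14 beside -0.26 over all genes. The members' shares, 21.9% and 40.6%, were near those of all genes, so nothing particular to these genes is read from them. That split rested on the scale: with arrays shifted to equal medians 17 genes rose and 9 fell, and after quantile normalization 9 rose and 12 fell. Under the shift the median change over all genes turned positive as well. Here and below, the all-gene shares are those of the values as deposited, so counts after a rescaling are not set against them. Of the 20 calls, 16 held under the shift, while IFIT3, DDX60, IFI44L and IRF1 were no longer called. At 72 h the high dose raised 6 and lowered 21 of 32 (63.4% of all genes called, 26.3% as higher and 37.0% as lower). The median change was -1.0, beside -0.12 over all genes. The shift to equal medians left 7 rises and 17 falls there. On the 3 treated arrays at 72 h, 9, 7 and 9 of the 32 lay above their control mean.

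The low dose of Ota at 24 h raised 0 and lowered 5 of the 32 (14.7% of all genes called, 4.66% as higher and 10.0% as lower): OASL, ISG15, BST2, IFI35 and IRF7. Without control replicate 1, low dose replicate 1 or low dose replicate 2 the 5 calls became 3. At 72 h it raised OAS3 and HERC5 and lowered ISG15, ISG20 and IFI35 (17.1% of all genes called, 9.79% as higher and 7.28% as lower). At both times the share of members called was near that of all genes. After the shift to equal medians 1 rise and 3 falls remained at 72 h. High exceeded low for 9 genes and lay below it for 11 at 24 h (58.1% of all genes called, 19.4% as higher and 38.7% as lower), a split that became 16 and 6 under the shift and 12 and 6 after quantile normalization. At 72 h the split was 5 and 18 (58.4% of all genes called, 21.7% as higher and 36.7% as lower), and 6 and 12 under the shift.

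**Figure D1:**
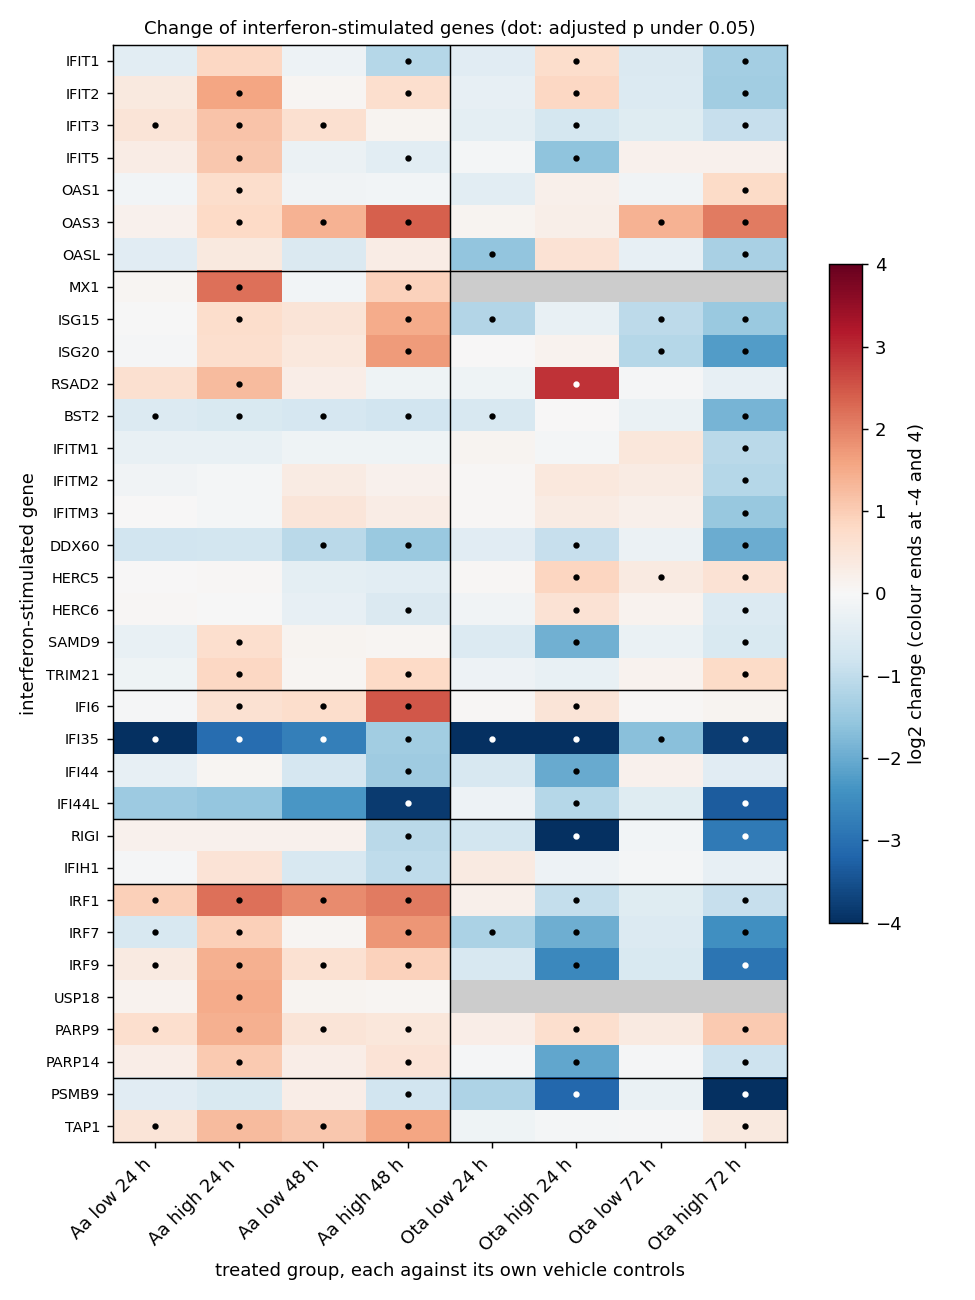
Log2 change of the 34 interferon-stimulated genes that were tested (vertical axis, ordered by role) in each treated group against its own vehicle controls (horizontal axis). Colour runs from -4 to 4, a dot marks an adjusted p under 0.05 in limma, and grey marks genes not tested for Ota. The factors IRF1, IRF7 and IRF9 are red at the high dose of Aa and blue at the high dose of Ota, and IFI35 is blue in every column.

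Of the transcription factors and feedback genes, all 6 with a probe set rose with a high dose of Aa at 24 h, and 5 of them at 48 h, beside 27.4% and 30.9% of all genes. USP18 is among the 6, and it was at or under 4 in all Aa controls. Its high dose arrays at 24 h were enough to pass the filter, so its rise there was not open. Under a high dose of Ota 4 of 5 tested, IRF1, IRF7, IRF9 and PARP14, were called lower at both times and PARP9 higher, beside 42.4% of all genes lower at 24 h and 37.0% at 72 h. After one or both rescalings of the arrays the calls of IRF1 at both times and of PARP14 at 72 h did not hold.

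IRF1, a factor that binds interferon response elements and can act without added interferon, stood at 8.71, 8.14 and 8.25 on the arrays of the high dose of Aa at 24 h. Its controls stood at 6.13, 5.81 and 6.59. The groups did not overlap, and the rise was 2.19 ± 0.26 (log2, SE; adjusted p = 7.5e-06). At 48 h the values were 8.07, 7.72 and 8.12 against 6.01, 5.67 and 5.99, a rise of 2.08 ± 0.26. The low dose raised it as well, by 0.97 ± 0.26 at 24 h and by 1.89 ± 0.26 at 48 h. Under the high dose of Ota at 24 h IRF1 was lower, at 4.42, 5.20 and 5.04 against 5.83, 6.10 and 5.57. That change of -0.95 ± 0.30 (adjusted p = 0.0121) did not pass after either rescaling of the arrays (adjusted p = 0.395 after the shift and 0.199 after quantile normalization), nor when control replicate 2 (0.0510) or high dose replicate 1 (0.0677) was left out, and another probe set of IRF1 rose by 0.95 ± 0.29 in the same comparison. At 72 h the values were 6.00, 6.49 and 7.05 against 7.46, 7.12 and 7.73, a change of -0.92 ± 0.30 (adjusted p = 0.0144). It too was lost after the shift (0.116), after quantile normalization (0.0789) and without control replicate 3 (0.0629) or high dose replicate 1 (0.0839). The direction of IRF1 under Ota is therefore not settled by these arrays, whereas with Aa both probe sets rose.

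IRF9, the DNA-binding subunit of the complex that type I interferons activate, varied little between replicates with Aa. On the arrays of the high dose of Aa at 24 h it stood at 8.97, 8.94 and 8.95, against 7.39, 7.68 and 7.52 in the controls. The rise was 1.42 ± 0.12 (adjusted p = 2.19e-07), and at 48 h it was 0.93 ± 0.12, from 7.41, 7.29 and 7.46 to 8.20, 8.28 and 8.47. Under Ota it went far the other way. At 24 h the high dose arrays read 4.91, 3.97 and 4.70 against 7.23, 7.06 and 7.02, a change of -2.57 ± 0.30 (adjusted p = 1.84e-06). At 72 h they read 4.95, 3.86 and 5.36 against 7.63, 7.43 and 7.87, a change of -2.92 ± 0.30. No treated array came within 2 log2 units of the lowest control at either time.

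IRF7, which drives the genes of interferon alpha, followed IRF9 in direction. On the arrays of the high dose of Aa it stood at 7.66, 7.43 and 7.37 at 24 h against 6.54, 6.37 and 6.70, and at 7.94, 7.87 and 8.40 at 48 h against 6.25, 6.21 and 6.43. The rises were 0.95 ± 0.18 and 1.77 ± 0.18. At 24 h it fell by 0.63 ± 0.18 with the low dose, so here the doses acted in opposite directions. Under the high dose of Ota it fell by 1.95 ± 0.34 at 24 h, to 4.25, 4.94 and 4.23 from 6.36, 6.53 and 6.39. At 72 h it fell by 2.46 ± 0.34, or -2.26 with levels at or under 4 set to 4, to 3.39, 5.25 and 4.64 from 6.90, 7.17 and 6.60. The 72 h replicates were spread widely, yet all lay below every control.

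PARP9 and PARP14, ADP-ribosyltransferase family proteins that are both induced by interferon, moved apart under Ota. PARP9 rose in every comparison of a high dose with its control. With Aa at 24 h it stood at 10.32, 10.63 and 10.44 against 8.79, 9.23 and 9.06, a rise of 1.43 ± 0.15, and at 48 h it rose by 0.45 ± 0.15. With Ota it rose by 0.66 ± 0.17 at 24 h and by 1.04 ± 0.17 at 72 h. PARP14 rose by 1.04 ± 0.16 with Aa at 24 h, to 9.38, 9.70 and 9.21 from 8.40, 8.58 and 8.19, and by 0.54 ± 0.16 at 48 h. With Ota at 24 h it dropped to 5.65, 6.67 and 6.55 from 8.44, 8.50 and 8.12, a change of -2.07 ± 0.22 (adjusted p = 6.13e-07). At 72 h it fell by 0.84 ± 0.22, a call lost under the shift to equal medians. USP18, a protease that removes ISG15 from proteins and limits receptor signalling, was at or under 4 in all control arrays of Aa. With a high dose of Aa at 24 h it stood at 5.41, 5.10 and 4.13, at least 1.84-fold higher, and at 48 h it was back at 3.48, 3.53 and 3.58. In the Ota cultures of the high dose at 24 h it read 3.77, 4.38 and 5.41, which was too few arrays above 4 for a test.

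**Figure D2:**
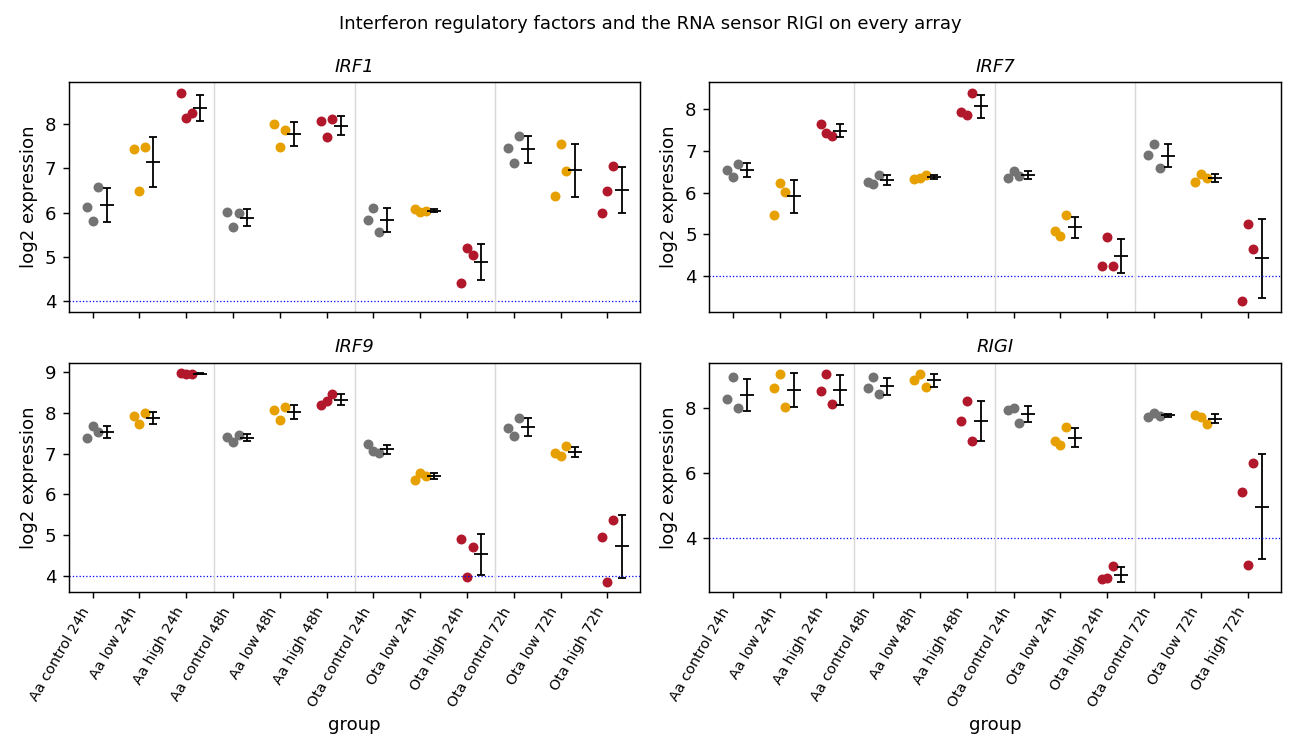
Log2 expression (vertical axes) of IRF1, IRF7, IRF9 and the RNA sensor RIGI on each of the 36 arrays by group (horizontal axes), with grey for vehicle, orange for the low dose and red for the high dose. Points are cultures, bars are the mean and SD of 3, and the dotted line is the level of 4. IRF9 reads 8.94 to 8.97 at the high dose of Aa and 3.97 to 4.91 at the high dose of Ota at 24 h, and RIGI is under 4 there on all 3 Ota arrays.

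The RNA sensors showed one of the largest falls of the set. RIGI, which recognises viral RNA in the cytosol, stood at 7.94, 8.01 and 7.55 in the Ota controls at 24 h. On the high dose arrays it read 2.73, 2.74 and 3.12, all under 4, so RIGI was at least 14.3-fold lower (adjusted p = 4.8e-07). Another probe set of RIGI fell by 4.79 ± 0.41, and a further one that ends in _x_at by 1.59 ± 0.37. At 72 h the treated arrays were uneven, at 5.41, 3.15 and 6.31 against 7.74, 7.84 and 7.77, a change of -2.83 ± 0.51, or -2.54 with levels at or under 4 set to 4. With Aa, RIGI was not called at 24 h (a change of 0.16 ± 0.34) and fell by 1.06 ± 0.34 at 48 h. The probe set of RIGI that ends in _x_at was also called lower with Aa at 48 h (adjusted p = 0.0124). The remaining one was not called there, at -0.28 ± 0.34 (adjusted p = 0.502), so the probe sets differ on this fall. IFIH1, the sensor of long double-stranded RNA also called MDA5, fell by 1.01 ± 0.26 with Aa at 48 h, to 6.74, 7.17 and 6.33 from 7.81, 8.06 and 7.40. At 24 h its change of 0.55 ± 0.26 passed with the replicate block (adjusted p = 0.00583) and not without it. It was not called with Ota, at -0.19 ± 0.21 and -0.33 ± 0.21, but the shift to equal medians made the 24 h change 0.45, called as higher (adjusted p = 0.0351).

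The IFIT genes encode proteins that bind viral RNA, and the OAS genes make the messenger that activates RNase L. With a high dose of Aa at 24 h, 5 of the 7 tested rose and 0 fell (27.4% and 24.0% of all genes), and at 48 h 2 rose and 2 fell (30.9% and 35.1%). With Ota 2 rose and 2 fell at 24 h (21.6% and 42.4% of all genes), and 2 rose and 4 fell at 72 h (26.3% and 37.0%). These small counts describe the tested genes, and none of them is read as differing from all genes. Where a gene of the set had another probe set past the filter (11 probe sets of 10 genes), it was called the same way in 18 of 44 pairs with a high dose comparison and the opposite way in 1. In the remaining pairs only 1 probe set was called, or neither. Only the chosen one was called for SAMD9 with Ota at both times, for example, and only the other one for RSAD2 with Ota at 72 h.

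IFIT5 changed sides with both compound and time. Its level with a high dose of Aa at 24 h was 9.12, 9.41 and 8.95 against 8.0, 8.19 and 8.02, a rise of 1.09 ± 0.11, and at 48 h it was 7.95, 7.82 and 8.04 against 8.36, 8.40 and 8.32, a change of -0.42 ± 0.11. With Ota at 24 h it read 7.21, 6.20 and 7.28 against 8.76, 8.33 and 8.42, a change of -1.61 ± 0.25 (adjusted p = 3.48e-05). At 72 h it was not called, at 0.17 ± 0.25, but the shift to equal medians made this 0.49, called as higher (adjusted p = 0.0482). The treated and control arrays were apart in all 3 called comparisons. Another probe set of IFIT5 rose and fell with it at 24 h but was not called with Aa at 48 h, at 0.25 ± 0.16.

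IFIT2 and IFIT3 rose together with Aa at 24 h. IFIT2 stood at 9.12, 9.48 and 8.83 against 7.26, 7.95 and 7.44, a rise of 1.59 ± 0.22, and IFIT3 rose by 1.15 ± 0.14 to 10.49, 10.36 and 10.23 from 9.15, 9.16 and 9.33. Under Ota they parted at 24 h, when IFIT2 rose by 0.83 ± 0.24 and IFIT3 fell by 0.72 ± 0.20, the latter call being lost under the shift to equal medians. By 72 h both were lower, at -1.39 ± 0.24 and -0.92 ± 0.20. Their other probe sets were not called with Ota at either time, at -0.71 ± 0.33 (adjusted p = 0.0713) for IFIT2 and -0.45 ± 0.28 (adjusted p = 0.177) for IFIT3 at 72 h.

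IFIT1 was uneven between replicates of Aa. At 24 h it read 8.95, 9.65 and 8.58 against 7.73, 8.83 and 8.13 and was not called, at 0.82 ± 0.37 (adjusted p = 0.0743), although it passed with the replicate number as a block (adjusted p = 0.00566). At 48 h it read 6.16, 7.20 and 7.22 against 7.59, 8.68 and 7.75, a change of -1.14 ± 0.37 (adjusted p = 0.0127) that was lost without high dose replicate 1 (adjusted p = 0.0755) or control replicate 2 (adjusted p = 0.0766). With Ota it rose by 0.71 ± 0.26 at 24 h and fell by 1.37 ± 0.26 at 72 h, to 5.88, 6.64 and 5.43 from 7.32, 7.43 and 7.31.

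OAS3 was raised with both compounds at their later time. High dose arrays of Aa read 8.67, 8.62 and 8.37 at 24 h against 7.59, 7.82 and 7.86, and 9.00, 9.18 and 9.41 at 48 h against 6.43, 6.97 and 7.01. The rises were 0.80 ± 0.16 and 2.39 ± 0.16, and the low dose at 48 h raised it by 1.38 ± 0.16. With Ota it was not called at 24 h, at 0.22 ± 0.26 (0.86 and called higher after the shift to equal medians, adjusted p = 0.0116), and stood 2.09 ± 0.26 above control at 72 h, at 7.47, 8.03 and 7.60 against 5.66, 4.99 and 6.19. The treated level at 72 h was close to that of the 24 h controls, which read 7.88, 7.28 and 7.46. The controls fell by 1.93 ± 0.26 between 24 h and 72 h, so the difference at 72 h includes a fall in the vehicle cultures. With Aa the controls of OAS3 changed by -0.95 ± 0.16 between 24 h and 48 h, so its difference at 48 h includes such a fall too. OAS1 rose by 0.70 ± 0.14 with Aa at 24 h and by 0.77 ± 0.29 with Ota at 72 h, and its other probe set gave larger rises of 2.45 ± 0.38 and 3.17 ± 0.40. With Aa at 48 h OAS1 was not called, at -0.10, but its other probe set rose by 1.13 ± 0.38. OASL, a relative without the enzyme activity, fell by 1.30 ± 0.30 with Ota at 72 h, a change that shrank to -0.31 and lost its call with levels at or under 4 set to 4.

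The other antiviral effectors held 13 tested genes for Aa and 12 for Ota. Of these, 5 rose and 1 fell with a high dose of Aa at 24 h, and 4 rose and 3 fell at 48 h, where all genes gave 27.4% and 24.0%, then 30.9% and 35.1%. With Ota 3 rose and 2 fell at 24 h, and 2 rose and 9 fell at 72 h, where all genes gave 21.6% and 42.4%, then 26.3% and 37.0%.

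RSAD2, the radical-SAM enzyme viperin, had the largest rise of the set under Ota. At 24 h the high dose arrays read 7.57, 7.58 and 7.18 against 4.33, 4.55 and 4.79, a rise of 2.88 ± 0.35 (adjusted p = 3.26e-06), and another probe set rose by 2.56 ± 0.24. At 72 h it was back to 4.08, 4.22 and 4.17, with controls at 3.74, 4.51 and 5.25, and the change of -0.34 ± 0.35 was not called, although the other probe set was lower, at -1.22 ± 0.24 (adjusted p = 0.00036). With Aa at 24 h it rose by 1.26 ± 0.34, or by 1.02 with levels at or under 4 set to 4, to 4.85, 5.65 and 4.58 from 3.28, 4.0 and 4.02. Here too the rise was gone at the later time, with 4.04, 4.05 and 2.89 at 48 h.

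ISG15, the ubiquitin-like protein that is attached to other proteins, rose with Aa and fell with Ota. With a high dose of Aa at 48 h it stood at 11.43, 11.76 and 11.68 against 9.62, 10.50 and 10.32, a rise of 1.47 ± 0.26 (adjusted p = 0.000168). At 24 h it read 11.0, 11.57 and 11.26 against 10.14, 10.97 and 10.62, a rise of 0.70 ± 0.26 (adjusted p = 0.0391). This call was lost after the shift to equal medians (0.0865) and with no filter on low levels (0.0834). It was also lost without control replicate 1 (0.180), high dose replicate 2 (0.142), control replicate 3 (0.0700) or high dose replicate 3 (0.0740). With Ota at 24 h the low dose lowered it, to 8.92, 9.34 and 8.94 against 9.97, 10.47 and 10.26 in the controls. The high dose there, at 9.89, 10.08 and 9.79, was not called, at -0.31. The high dose was 0.85 ± 0.18 above the low dose (adjusted p = 0.000758). At 72 h the high dose arrays read 7.94, 8.28 and 8.53 against 9.57, 9.77 and 9.92, a change of -1.5 ± 0.18. HERC5, the main ligase that attaches ISG15, rose under Ota by 0.87 ± 0.11 at 24 h and 0.56 ± 0.11 at 72 h, while its relative HERC6 rose by 0.58 ± 0.19 at 24 h and fell by 0.55 ± 0.19 at 72 h. The fall of HERC6 was lost after quantile normalization (-0.31, adjusted p = 0.182) and after the shift to equal medians (-0.22, adjusted p = 0.382).

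ISG20, an exonuclease that degrades single-stranded RNA, rose with Aa at 48 h. Its arrays read 5.02, 6.53 and 5.88 against 3.99, 4.16 and 4.17, a rise of 1.70 ± 0.34. With Ota at 72 h it stood at 3.57, 4.19 and 4.04 against 6.03, 6.02 and 6.42, a change of -2.22 ± 0.19, or -2.08 with levels at or under 4 set to 4 (adjusted p = 9.14e-08). The controls had risen by 2.05 ± 0.19 from 24 h, when they read 4.12, 4.17 and 4.04, so the treated cultures at 72 h were at the level of the earlier controls. This was the reverse of OAS3.

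Proteins that act at the membrane fell with Ota at 72 h. BST2, or tetherin, which holds budding virus on the cell, read 7.88, 8.62 and 8.10 against 10.22, 10.03 and 9.96, a change of -1.87 ± 0.18, and it also fell with a high dose of Aa, by 0.61 ± 0.16 at 24 h and 0.75 ± 0.16 at 48 h. IFITM3, which blocks virus entry, read 9.69, 10.34 and 10.11 against 11.57, 11.48 and 11.68, a change of -1.53 ± 0.17. IFITM1 and IFITM2 fell by 1.08 ± 0.16 and 1.13 ± 0.21. These 3 genes are close copies, and the probe sets of IFITM2 and IFITM3 end in _x_at, so their signals may be shared. None of the 3 was called with Aa or with Ota at 24 h, although with the replicate block IFITM1 passed as lower with Aa at 24 h (adjusted p = 0.0109) and IFITM3 as higher at 48 h (adjusted p = 0.00533). With arrays shifted to equal medians all 3 were called higher with Ota at 24 h, at 0.55, 1.05 and 0.96 for IFITM1, IFITM2 and IFITM3, and IFITM2 was so after quantile normalization too (0.51, adjusted p = 0.0461).

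DDX60, a helicase, and SAMD9, a virus restriction factor, were called lower with Ota at both times. DDX60 changed by -0.93 ± 0.17 at 24 h, a call lost under the shift to equal medians (-0.29), and fell by 1.99 ± 0.17 at 72 h, to 6.88, 6.80 and 6.80 from 8.99, 8.75 and 8.69. With Aa it fell by 1.5 ± 0.33 at 48 h, to 7.54, 7.85 and 7.52 from 9.06, 9.54 and 8.80. SAMD9 fell by 1.93 ± 0.21 at 24 h, or -1.82 with levels at or under 4 set to 4, to 4.47, 3.86 and 3.82 from 5.83, 5.67 and 6.44, but its other probe set was not called there, at -0.28 ± 0.15. At 72 h SAMD9 changed by -0.62 ± 0.21 (adjusted p = 0.0158), which was lost after either rescaling of the arrays. TRIM21, an antibody receptor of the cytosol, rose by 0.83 ± 0.25 and 0.80 ± 0.25 with Aa and by 0.75 ± 0.24 with Ota at 72 h. MX1, a dynamin-like GTPase, was at or under 4 in all controls and at least 1.72-fold higher with Aa at 24 h, at 4.73, 5.18 and 4.44. Its call at 48 h vanished with levels at or under 4 set to 4, at 0.02. On the Ota arrays it exceeded 4 only at the high dose and 24 h, at 4.76, 3.77 and 4.02.

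Among the IFI genes, 1 rose and 1 fell of 4 tested with a high dose of Aa at 24 h, 1 rose and 3 fell at 48 h, 1 rose and 3 fell with Ota at 24 h, and 2 fell at 72 h. With 4 genes these counts are not set against the shares of all genes given above. IFI35, a partner of the protein NMI, was lower than control in all 8 comparisons of a dose with its control. The high dose of Aa brought it to 4.60, 4.18 and 5.02 at 24 h against 7.61, 7.55 and 7.79, and to 6.13, 5.79 and 5.77 at 48 h against 7.34, 7.20 and 7.34. The changes were -3.05 ± 0.24 and -1.39 ± 0.24. The low dose lowered it further, to 2.91, 4.08 and 3.66 at 24 h, and the high dose was above the low dose by 1.05 ± 0.24 at 24 h, or by 0.57 with levels at or under 4 set to 4, and by 1.33 ± 0.24 at 48 h. With Ota at 24 h both doses brought it under 4 on all arrays, to 2.98, 3.60 and 2.67 at the high dose and 2.69, 2.67 and 2.68 at the low dose, from 7.28, 7.09 and 7.19. Each dose was at least 9.10-fold lower. At 72 h the high dose read 2.67, 2.68 and 2.19 against 6.41, 6.09 and 6.39, at least 4.91-fold lower, and the low dose had come back in part, to 5.08, 4.81 and 3.97.

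IFI6, a small membrane protein, rose steeply with Aa between the times. It read 5.92, 5.91 and 6.43 at 24 h against 5.50, 5.40 and 5.50, and 8.07, 7.70 and 8.18 at 48 h against 5.57, 5.44 and 5.49. The rises were 0.62 ± 0.16 and 2.48 ± 0.16 (adjusted p = 1.46e-08 at 48 h). The low dose at 48 h was between, at 6.01, 6.49 and 6.14. With Ota it rose by 0.53 ± 0.16 at 24 h and was not called at 72 h.

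IFI44L and IFI44 fell. IFI44L read 5.58, 4.44 and 3.30 with a high dose of Aa at 48 h against 8.99, 9.05 and 6.79, a change of -3.84 ± 0.92, or -3.60 with levels at or under 4 set to 4. Replicate 3 was the lowest of its group in each of the Aa groups, so the spread is wide, and at 24 h the change of -1.56 ± 0.92 passed only with the replicate block (adjusted p = 0.00125). With Ota at 72 h it fell by 3.32 ± 0.26, to 6.37, 5.49 and 6.01 from 9.25, 9.17 and 9.39. At 24 h the change was -1.14 ± 0.26, to 7.33, 7.37 and 7.61 from 8.66, 8.27 and 8.81, and it was lost under the shift to equal medians. IFI44 fell by 1.42 ± 0.40 with Aa at 48 h, to 5.17, 5.80 and 5.36 from 6.5, 7.61 and 6.49, and by 2.03 ± 0.50 with Ota at 24 h, to 4.42, 5.76 and 5.76 from 7.13, 6.93 and 7.98. With Ota at 72 h it was not called, at -0.46 ± 0.50.

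**Figure D3:**
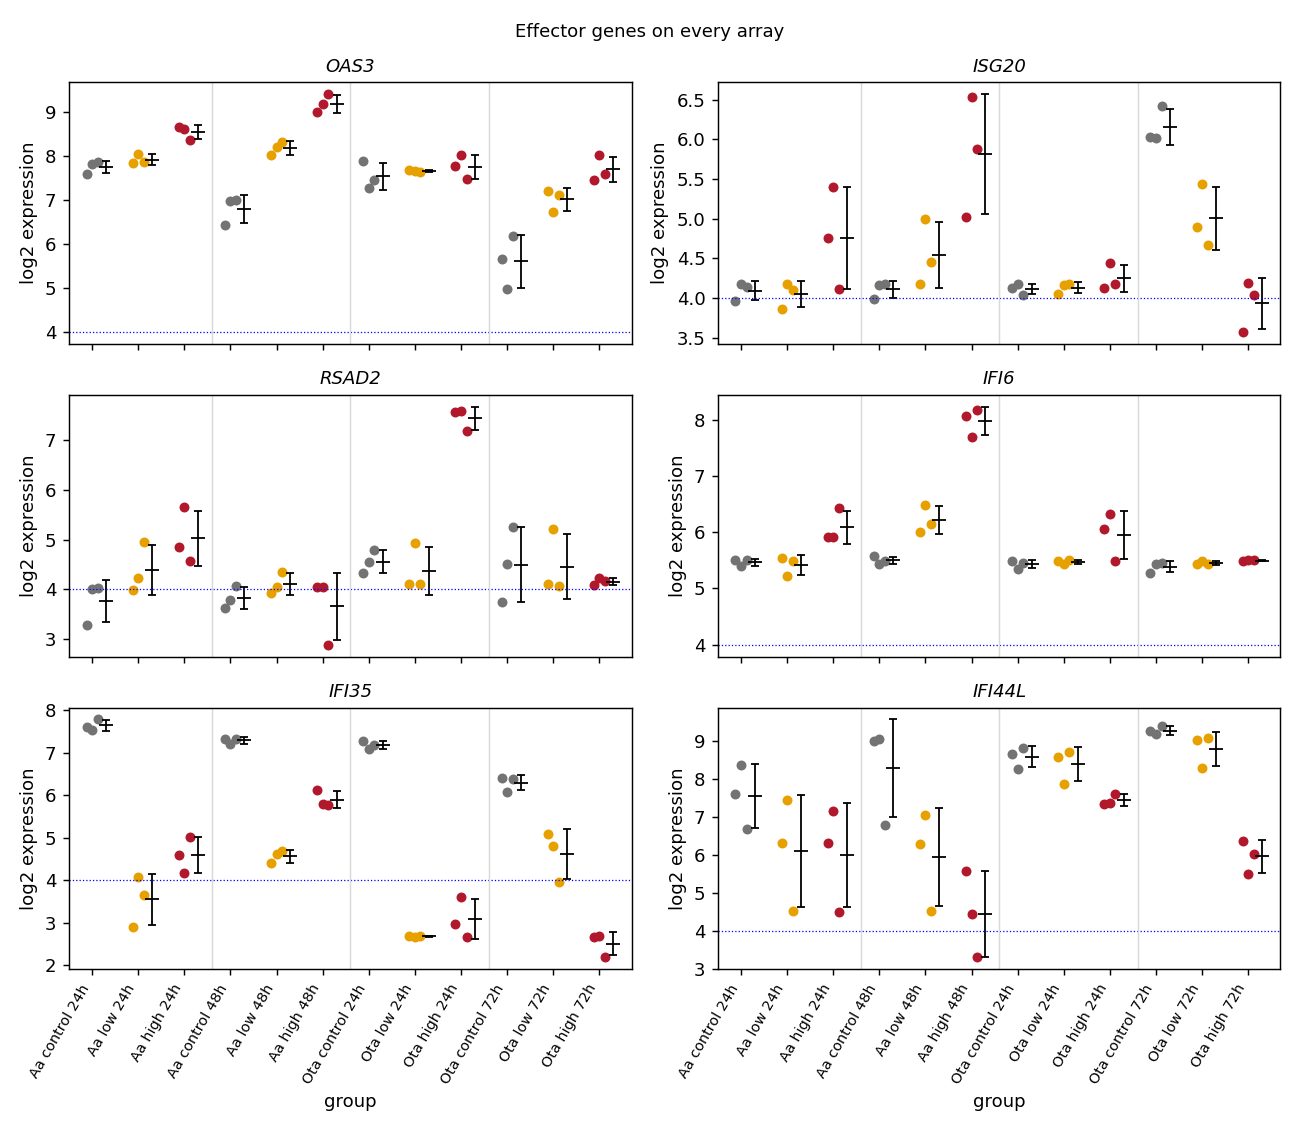
Log2 expression (vertical axes) of OAS3, ISG20, RSAD2, IFI6, IFI35 and IFI44L on each array by group (horizontal axes), with grey for vehicle, orange for the low dose and red for the high dose. Points are cultures, bars are the mean and SD of 3, and the dotted line is the level of 4. The 72 h Ota controls are low for OAS3 (4.99 to 6.19) and high for ISG20 (6.02 to 6.42), and RSAD2 reads 7.18 to 7.58 at the high dose of Ota at 24 h.

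The antigen processing pair moved apart. TAP1, a subunit of the peptide transporter, and PSMB9, a subunit of the immunoproteasome, lie head to head on chromosome 6 with 488 bases between their start sites, and their windows share 13 bases. TAP1 rose with a high dose of Aa, to 10.03, 9.89 and 9.66 at 24 h from 8.53, 8.76 and 8.49 and to 9.91, 10.13 and 10.35 at 48 h from 8.70, 8.41 and 8.51. The rises were 1.27 ± 0.16 and 1.59 ± 0.16. PSMB9 did not follow it, with -0.61 ± 0.29 at 24 h, which passed only with the replicate block (adjusted p = 0.0270). At 48 h it fell by 0.78 ± 0.29, to 7.77, 7.76 and 7.09 from 8.17, 8.39 and 8.41. Under Ota, TAP1 was not called at 24 h, at 8.70, 8.72 and 8.71 against 8.68, 8.69 and 8.94, and rose by 0.40 ± 0.12 at 72 h. PSMB9 fell to 5.56, 6.65 and 3.79 at 24 h from 8.27, 8.44 and 8.73, a change of -3.15 ± 0.50. At 72 h it read 3.45, 3.75 and 4.89 against 8.03, 8.24 and 8.30, a change of -4.16 ± 0.50 (adjusted p = 3.18e-06), or -3.90 with levels at or under 4 set to 4. With the shift to equal medians TAP1 also rose at 24 h, by 0.57.

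**Figure D4:**
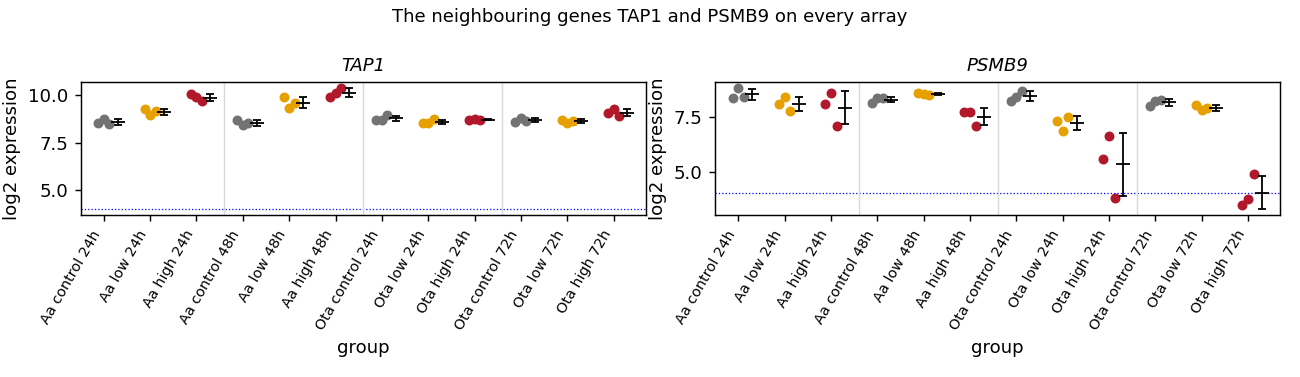
Log2 expression (vertical axes, on separate scales) of the neighbouring genes TAP1 and PSMB9 on each array by group (horizontal axes), with grey for vehicle, orange for the low dose and red for the high dose. Points are cultures, bars are the mean and SD of 3, and the dotted line is the level of 4. TAP1 stays between 8.70 and 8.72 at the high dose of Ota at 24 h, where PSMB9 reads 3.79 to 6.65.

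The vehicle cultures changed little between the times of Aa and more between those of Ota. For Aa, OAS3 was lower at 48 h than at 24 h (-0.95 ± 0.16), and it was the one gene called of the 34 (1.29% of all genes called, 0.565% as higher and 0.729% as lower). With the replicate number as a block across times 4 were higher and 2 lower, and without 48 h replicate 1 or 24 h replicate 3 the count was 0 of 34 in limma. For Ota, ISG20 and IRF1 were higher at 72 h, by 2.05 ± 0.19 and 1.60 ± 0.30 (29.8% of all genes called, 14.0% as higher and 15.8% as lower). IFIT1, OAS3, OASL, IFI35 and PARP9 were lower, at -1.18 ± 0.26, -1.93 ± 0.26, -1.54 ± 0.30, -0.89 ± 0.26 and -0.65 ± 0.17. For OASL it was -1.33 with levels at or under 4 set to 4.

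The effect of the high dose itself differed between times for many of the genes. With Aa it was smaller or more negative at 48 h for 11 genes and larger for 4, OAS3, IFI6, IFI35 and IRF7 (20.7% of all genes called, 7.14% as higher and 13.6% as lower). The median difference was -0.50 beside -0.07 over all genes, and with the replicate block 7 were larger and 17 smaller. IFIT1, IFIH1 and IFIT5 differed most among those that went down, by -1.97 ± 0.52, -1.56 ± 0.37 and -1.51 ± 0.16, and IFI6 most among those that went up, by 1.86 ± 0.23. With Ota the effect was more negative at 72 h for 13 genes and more positive for 7 (53.8% of all genes called, 33.0% as higher and 20.8% as lower), with a median difference of -0.39 beside 0.20 over all genes. RSAD2 (-3.23 ± 0.50), ISG20 (-2.36 ± 0.27), IFIT2 (-2.22 ± 0.34) and IFI44L (-2.17 ± 0.37) went down. RIGI (2.15 ± 0.72, or 1.29 with levels at or under 4 set to 4), OAS3 (1.86 ± 0.37), IFIT5 (1.77 ± 0.35) and SAMD9 (1.31 ± 0.29) went up.

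Only 24 h was shared by the compounds, and their high dose effects there were compared as a difference of differences over all 36 arrays, at doses that are not matched. Of the 34 genes tested, the effect of Ota was lower for 16 and higher for 3, RSAD2, HERC5 and BST2 (59.4% of all genes called, 18.7% as higher and 40.7% as lower). The median difference was -0.69 beside -0.33 over all genes. The shift to equal medians gave 10 lower and 7 higher, with the all-gene median at 0.42. With levels at or under 4 set to 4 the difference for IFI35 shrank from -1.05 to -0.13. RIGI (-5.13 ± 0.63, or -4.0 with levels at or under 4 set to 4), IRF9 (-4.0 ± 0.33), IRF1 (-3.14 ± 0.41), PARP14 (-3.11 ± 0.28) and IRF7 (-2.90 ± 0.40) differed most. Of the 18 genes that rose with Aa at 24 h, 7 fell with Ota (38.9% of the 18 and 53.8% of the 13 that fell), where 42.4% of all genes fell with Ota: IFIT3, IFIT5, IRF1, IRF7, IRF9, PARP14 and SAMD9. Those of IFIT3 and IRF1 were lost under the shift to equal medians. IFI6, IFIT2, PARP9 and RSAD2 rose with both, and IFI35 fell with both.

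**Figure D5:**
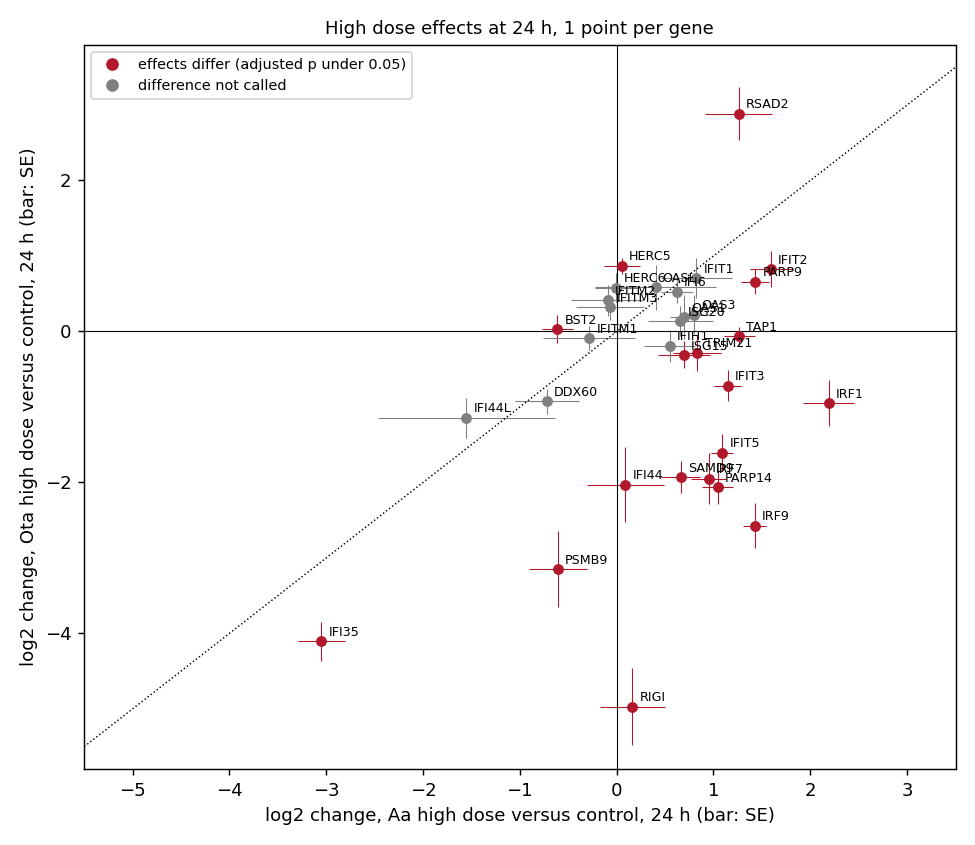
Log2 change with a high dose of Aa at 24 h (horizontal axis) against that with a high dose of Ota at 24 h (vertical axis), each against its own controls, for the genes tested in both compounds. Bars are SE, the dotted line marks equal changes, and red marks genes whose effects differ at an adjusted p under 0.05 in limma. IRF1, IRF7, IRF9, IFIT5, SAMD9 and PARP14 lie to the right of 0 and below it, and RSAD2 lies above 0 for both.

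Genes around these in the pathway were followed from further lists, whose counts stand beside the all-gene shares of higher and lower calls with a high dose: 27.4% and 24.0% (Aa, 24 h), 30.9% and 35.1% (Aa, 48 h), 21.6% and 42.4% (Ota, 24 h), 26.3% and 37.0% (Ota, 72 h). The interferons themselves were not seen: 9 of 10 listed ligand genes had a probe set, IFNB1, IFNL1 and IFNG among them, and none was above 4 on any array (the highest reading was 2.66, for IFNK). An absent reading here says only that the message was not above the background of the array. Of 8 tested receptor and kinase genes, 5 rose and 2 fell with a high dose of Aa at 24 h, 1 rose and 1 fell at 48 h, 4 rose and 1 fell with Ota at 24 h, and 3 rose and 3 fell at 72 h. TYK2, the kinase of the type I receptor, rose with Aa by 0.90 ± 0.20 and 1.77 ± 0.20 and fell with Ota at 72 h by 1.90 ± 0.23. IFNAR1, a chain of that receptor, rose by 0.72 ± 0.16 with Aa at 24 h and fell by 1.45 ± 0.21 with Ota at 24 h. IL10RB, a chain of the lambda interferon receptor, rose by 1.51 ± 0.15 with Ota at 24 h, and STAT3 by 1.21 ± 0.14 at 72 h. IFNAR2 fell by 0.35 ± 0.11 with Aa at 48 h.

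Among genes of nucleic acid sensing, 4 of 12 tested rose and 2 fell with Aa at 24 h, and 3 rose and 3 fell at 48 h. Of 10 tested for Ota, 2 rose and 4 fell at 24 h, and 5 rose and 3 fell at 72 h. DHX58, the RIG-I-like protein LGP2, was at or under 4 in the Aa controls. It read 5.69, 5.79 and 5.33 at 24 h and 6.57, 6.59 and 6.73 at 48 h with the high dose, at least 3.04-fold and at least 6.18-fold higher. SAMHD1, which depletes nucleotides, rose by 1.62 ± 0.22 with Aa at 24 h. TLR3, the endosomal RNA receptor, fell with Aa at 48 h to 2.58, 2.25 and 2.32 from 4.56, 5.07 and 4.58, at least 1.67-fold lower. With Ota at 24 h TLR3 read 2.95, 2.34 and 3.5 against 5.53, 4.56 and 5.65, at least 2.37-fold lower. MAVS, the adaptor on mitochondria that serves RIGI, fell there by 2.16 ± 0.21 to 6.97, 7.32 and 6.75. The DNA sensor CGAS read 5.62, 5.61 and 5.34 with Ota at 72 h against 3.29, 3.04 and 3.83, at least 2.88-fold higher. At 24 h it was the other way round, at 3.08, 3.00 and 3.54 against 5.22, 4.21 and 5.02, at least 1.76-fold lower.

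Of 9 negative regulators, 1 rose and 0 fell with Aa at 24 h (2 and 0 with the replicate block), 2 rose and 5 fell at 48 h, 2 rose and 4 fell with Ota at 24 h, and 5 rose and 2 fell at 72 h. PTPN6, a phosphatase, rose by 0.88 ± 0.17 with Aa at 24 h. SOCS1, an inhibitor of the receptor kinases, rose by 1.58 ± 0.30 with Aa at 48 h, when IRF2, a counterpart of IRF1, fell by 1.37 ± 0.27. TRIM27 fell by 4.03 ± 0.21 and the phosphatase PTPN1 by 3.44 ± 0.29 with Ota at 24 h. At 72 h TRIM27 was still lower by 1.47 ± 0.21, and the phosphatase PTPN11 was higher by 1.12 ± 0.13.

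Of 11 other tested genes of class I antigen presentation, 3 rose and 1 fell with Aa at 24 h, and 3 rose and 0 fell at 48 h (6 and 0 with the replicate block). With Ota 4 rose and 1 fell at 24 h, and 2 rose and 4 fell at 72 h. TAP2, the partner of TAP1, rose by 1.71 ± 0.20 and 2.42 ± 0.20 with Aa and by 1.72 ± 0.20 with Ota at 24 h. NLRC5, which drives class I genes, rose by 2.04 ± 0.30 with Aa at 24 h, and HLA-E by 2.02 ± 0.13 at 48 h. HLA-C rose by 0.56 ± 0.14 with Ota at 24 h. The immunoproteasome subunit PSMB10 fell by 3.72 ± 0.18 with Ota at 72 h, as PSMB9 did, to 4.49, 4.10 and 4.04 from 7.66, 7.93 and 8.20. ERAP1, which trims peptides, fell by 2.82 ± 0.15.

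Targets of NF-kB, a pathway that shares genes with this one, were counted beside them. Of 9 tested for Aa, 4 rose and 1 fell at 24 h and 6 rose and 2 fell at 48 h, and of 10 tested for Ota, 2 rose and 1 fell at 24 h and 5 rose and 1 fell at 72 h. The cytokine IL6 rose with Aa by 2.83 ± 0.88 at 24 h and by 4.94 ± 0.88 at 48 h, or by 4.31 there with levels at or under 4 set to 4, and was at least 15.3-fold higher with Ota at 72 h. NFKBIA, an inhibitor of NF-kB that is also its target, rose by 1.67 ± 0.12 with Aa at 24 h, and TNFAIP3 by 2.62 ± 0.33 with Ota at 24 h. The chemokine CCL2 fell by 3.08 ± 0.65 with Aa at 48 h, or -2.65 with levels at or under 4 set to 4, and changed by -2.46 ± 0.48 and -3.19 ± 0.48 with Ota at 24 h and 72 h.

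Markers of cell identity moved at the same doses. Of 4 tested proximal tubule markers, 3 fell and 0 rose with a high dose of Aa at 24 h and 4 fell at 48 h, and the same counts were found with Ota at 24 h and 72 h. The largest falls were those of SLC3A1 with Aa (-2.04 ± 0.49 and -3.43 ± 0.49), PAX8 with Ota at 24 h (-2.51 ± 0.35) and MIOX with Ota at 72 h (-3.79 ± 0.25). The summed level of the proximal tubule list ran from 11.48 to 11.61 (log2 of summed linear levels) against 12.02 to 12.45 in the controls with Aa at 24 h, from 10.64 to 11.10 against 12.50 to 13.08 at 48 h, from 10.86 to 11.06 against 12.70 to 12.75 with Ota at 24 h, and from 9.66 to 10.72 against 13.02 to 13.14 at 72 h. All 4 tested leukocyte markers were higher with a high dose of Ota at 24 h, FCER1G at least 5.55-fold, ITGAM at least 1.95-fold, CD74 by 1.01 ± 0.18 and LILRA4 by 0.71 ± 0.24. FCER1G and ITGAM were at or under 4 in the controls there, and a gene that passes the filter by being high in treated arrays has to differ. The 4 of 4 is therefore not read as a result about leukocyte markers. Their median change was 1.81, or 0.99 with levels at or under 4 set to 4. The leukocyte list summed to 9.27 to 9.63 against 8.07 to 8.39 in the controls with Ota at 24 h, and to 8.46 to 8.83 against 8.18 to 8.44 at 72 h, where FCER1G was the one marker called. With Aa the list summed to 8.58 to 9.27 against 8.83 to 9.31 at 24 h and to 9.21 to 9.81 against 8.76 to 9.42 at 48 h, where the groups overlapped. Of 3 leukocyte markers tested for Aa, 1 was higher and 0 lower at each time, or 2 and 0 at 48 h with the replicate block. PTPRC, which defines leukocytes, was at or under 4 on every array. Of 4 keratins, 2 fell and 0 rose with Aa at 24 h, and 1 fell and 2 rose at 48 h. With Ota 2 fell and 1 rose at 24 h, and 2 fell and 0 rose at 72 h. Of 3 tested fibroblast markers, 2 fell with Aa at 24 h, 1 rose and 1 fell with Ota at 24 h, and 1 rose at 72 h. Of distal nephron markers, 1 of 3 tested fell with Aa at each time. With Ota 1 rose and 1 fell of 4 at 24 h, and 1 rose and 2 fell at 72 h. The 1 tested endothelial marker fell with Ota at 72 h. The part of these markers in the changes of the interferon-stimulated genes was not tested.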

How the data were processed

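Each deposited value is a log2 expression level of a probe set. The submitters' processing notes name GCRMA as the authors' tool. Its version is not given in the sources used here, nor is it known that the arrays were processed as 1 set. GCRMA subtracts a background modelled from probe sequence, so levels under about 4 have no dependable order. Of 54675 probe sets, 62 were controls, 41091 had 1 gene symbol, 1801 several and 11721 none. Group means were fitted with limma 3.58.1 in R 4.3.3 to the 18 arrays of a compound, or to all 36 for the comparison of Ota with Aa. Tests were two-sided, with Benjamini-Hochberg adjustment over all genes tested, and the code was tested on simulated data. A fold written as "at least" is a lower bound against a level of 4, used if no array of the dimmer group exceeded 4. "The shift to equal medians" adds a constant to each array. Shares of all genes in percent are from the fits with neither a block nor a rescaling.

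The genes, the lists and the tests were chosen with earlier results of these data known. Values on every array are given for genes called with a change of at least 1 whose treated arrays all lie beyond the controls, at most 12 a comparison, and for IRF1, IRF7, IRF9 and ISG15. The 2 most changed called genes of each pathway list are named too, and of the marker lists only some genes are named. A few further genes, such as CGAS at 24 h, were added after their values were seen. Same-numbered Aa arrays deviated together (r from 0.189 to 0.562 within a time, over 0.1 in 18 of 18 pairs), so the replicate numbers of Aa pair the samples. The same held between 24 h and 48 h (r from 0.204 to 0.595, over 0.1 in 27 of 27 pairs). This comes from the data, since the labels give only the number. For Ota 11 of 18 such pairs within a time passed 0.1, with a median r of 0.145. Of pairs with unlike numbers 1 of 36 did, with a median of -0.085. The Ota numbers thus went with a weaker pairing than those of Aa.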

Additional observations from a re-analysis of the deposited data

Results flagged for a closer look

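In these results the effect of a high dose differed between times, or between compounds at 24 h, by the test of the difference itself in limma (adjusted p under 0.05), and each was picked out for that reason. The causes were not tested.

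With Aa, 15 of 34 interferon-stimulated genes had an effect at 48 h that differed from that at 24 h (20.7% of all genes did), and IFIT5, which was called in opposite directions at the times, differed by -1.51. With Ota, 20 of 32 had an effect at 72 h that differed from that at 24 h (53.8% of all genes did). IFIT1 (-2.08), IFIT2 (-2.22) and HERC6 (-1.13) went from higher to lower, although the 72 h fall of HERC6 was not called after either rescaling of the arrays, while RSAD2 (-3.23), ISG20 (-2.36) and IFI44L (-2.17) fell away from their 24 h effect. RIGI differed by 2.15 the other way, as its fall was smaller at 72 h.

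Between the compounds, 19 of 34 genes differed at 24 h, at doses that are not matched (59.4% of all genes did, so the count is near the background). The differences of Ota from Aa were -3.14 for IRF1, -2.90 for IRF7, -4.0 for IRF9 and -3.11 for PARP14. They were -1.87 for IFIT3, -2.70 for IFIT5, -2.59 for SAMD9, -2.12 for IFI44, -2.54 for PSMB9 and -5.13 for RIGI. Of these 10, IFI44 was no longer called with arrays shifted to equal medians (-1.38, adjusted p = 0.0690).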

How the results depend on the processing

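Of 51 results on single genes, 45 kept direction and call in every alternative run for them. Most of the 51 were picked because they were called, changed by at least 1 and had arrays that did not overlap. Their stability was thus partly fixed by the choice and does not describe the other genes of the set. Of 273 alternative counts of called genes, 261 stayed within 1.5 times the reported count. With the replicate block, 18 genes were called with the low dose of Aa at 48 h, where 5722 of 10972 genes were called. For the effect of Aa across times 24 were called with that block. With the block across times, chosen after seeing the data, 6 were called between the Aa controls. With no filter on low values 3 were called with the low dose of Ota at 24 h. The mean of all probe sets turned the fall of IRF1 with Ota at 24 h to 0.000768 (adjusted p = 0.998). For Ota the replicate numbers paired the samples less clearly than for Aa. With the block ISG15 with a high dose of Ota at 24 h was called at -0.31 (adjusted p = 0.0290). IFI44L with Ota at 24 h was not called after the shift to equal medians (adjusted p = 0.0756) or with all 36 arrays in 1 fit (adjusted p = 0.152). The causes were not tested.

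Leaving out each array in turn gave 18 to 21 called genes for the high dose of Aa at 24 h and 20 to 23 at 48 h, 3 to 8 and 8 to 12 for the low dose, and 17 to 19 and 10 to 13 for high against low. It gave 10 to 16 for the effect of Aa across times and 0 to 1 between its controls. For Ota it gave 18 to 20 and 25 to 25 for the high dose at 24 h and 72 h, 3 to 4 and 4 to 5 for the low dose, and 16 to 21 and 19 to 21 for high against low. It gave 18 to 23 for the effect of Ota across times, 6 to 8 between its controls and 17 to 22 for Ota against Aa.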
